A study of Homo sapiens with 102 samples.

Results

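The comparison set imatinib directly against trametinib, each given as the only drug, in K562 cells. It used 36 of the 102 libraries of the series, 18 for each drug, chosen by their labels alone. The libraries came from Combi-Seq, in which cells of K562, a long-established line of chronic myeloid leukaemia carrying the BCR-ABL fusion, were enclosed in droplets with a pair of drugs and a matching pair of barcode fragments, and were incubated for 12 h. In an ordered pair the drug was listed first with the solvent DMSO second (Imatinib_DMSO, Trametinib_DMSO), listed second after DMSO (DMSO_Imatinib, DMSO_Trametinib), or present in both places (Imatinib_Imatinib, Trametinib_Trametinib). Each ordered pair was run 3 times in the screen called dT and 3 times in the screen called Bio, which differed in the barcoding scheme. Every cell carried BCR-ABL. DMSO was listed as the partner except where the drug was in both places, and the paper states that the drugs were dissolved in DMSO. The labels give no doses, so the drugs are compared as they were used and not at matched doses. The cells were 1 cell line, and a library pools the droplets that share a barcode pair.

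Imatinib blocks the kinase activity of BCR-ABL, the fusion protein that drives this leukaemia. BCR-ABL signals through adaptors such as GRB2 and CRKL to RAS, RAF, MEK and ERK, and in parallel to STAT5 and to PI3K. Trametinib blocks MEK1 and MEK2, the kinases that activate ERK. One drug therefore acts at the top of the chain and the other several steps lower on 1 of its branches. ERK and STAT5 activity are usually read through short-lived target transcripts such as those of DUSP and SPRY genes for ERK and PIM1 and CISH for STAT5. K562 cells also make embryonic and fetal globins, and loss of BCR-ABL or ERK signalling is known to shift their erythroid and megakaryocytic genes.

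A library was kept when at least 1000 genes had a count. This left 15 imatinib and 17 trametinib libraries, 9 and 9 in the dT screen and 6 and 8 in the Bio screen. The libraries left out were all 3 Bio Imatinib_Imatinib runs, with 438 to 472 genes, and run 1 of Bio DMSO_Trametinib, with 808 genes. In the Bio screen, imatinib in both places was therefore absent while trametinib in both places was present. Among the libraries kept, total counts lay between 86866 and 405707 with imatinib and between 82879 and 491193 with trametinib. The mean log2 total with imatinib minus that with trametinib was -0.156, which a permutation test within runs and screens did not separate from 0 (two-sided, p = 0.454, adjusted over 3 measures 0.454). Detected genes numbered 2411 ± 865 (SD, n = 15) with imatinib and 2819 ± 1181 (SD, n = 17) with trametinib, and the permutation p was 0.141 (adjusted 0.211). With all 36 libraries the permutation p for detected genes was 0.014. The mitochondrial share of counts was 4.76% ± 1.17 (SD, n = 15) with imatinib and 5.23% ± 0.81 (SD, n = 17) with trametinib, with a permutation p of 0.117 (adjusted 0.211). Within the dT screen alone that share was 4.61% ± 0.71 with imatinib and 5.52% ± 0.74 with trametinib (SD, n = 9 each, permutation p = 0.0103), and within the Bio screen 4.99% ± 1.72 (n = 6) and 4.89% ± 0.78 (n = 8, permutation p = 0.857). Fewer cells behind a barcode and less RNA per cell cannot be told apart in such pools.

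**Figure D1:**
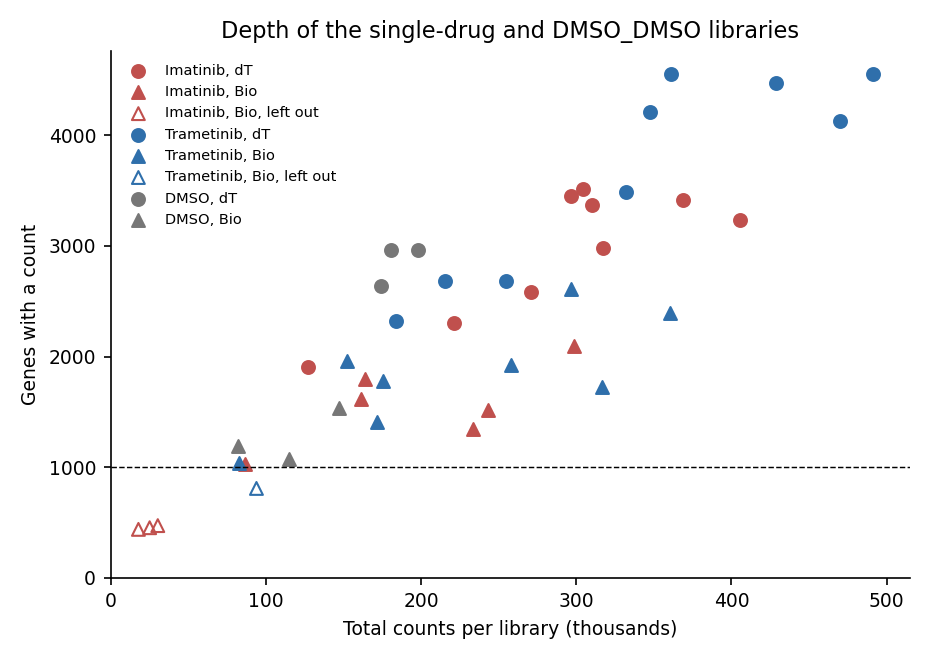
Genes with a count (y axis) against total counts in units of 1000 (x axis) for each single-drug library and the 6 in-screen DMSO_DMSO libraries. Circles are dT and triangles Bio libraries, open symbols are the 4 libraries left out, and the dashed line marks 1000 genes. The dT trametinib libraries reach 4558 genes and the dT imatinib libraries 3515.

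The identity of the cells was checked on 12 K562 markers. Their summed level was 9117 to 58776 counts scaled to a common library total (CPM, median 31451) with imatinib and 15902 to 48281 CPM (median 26562) with trametinib. HBG2, the fetal gamma globin, was counted in every library of both drugs and, by its medians given below, made up most of that sum. The sum is therefore largely a measure of 1 gene. HBG1, GYPB, LMO2 and EPOR were counted in at most 4 libraries of either drug. TFRC, the transferrin receptor, was counted in 1 of 15 imatinib and 5 of 17 trametinib libraries. Of the 8 markers of monocytes and granulocytes, 4 were among the genes analysed and had no count in either drug, LYZ and MPO included. The 8 lymphoid markers summed to a median of 0 CPM with both drugs, with the highest library at 373 CPM with imatinib and 1977 CPM with trametinib. The epithelial and stromal list summed to medians of 848 CPM with imatinib and 552 CPM with trametinib, and KRT8 and CDH1 were counted in every library of both drugs.

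With imatinib, 5 genes were lower than with trametinib and 0 were higher, among the 1400 genes counted in 50% or more of the libraries. The 5 genes were ECPAS, EI24, EEF2, TRMT2A and RAB1B. EEF2, the factor that moves the ribosome along the mRNA, was the only one of the 5 that was counted in every library, and its median was 1144 CPM with imatinib and 3771 CPM with trametinib. The other four were seen in 2 to 5 of 15 imatinib libraries and in 11 to 15 of 17 trametinib libraries. They thus reached the limit of 50% of libraries through trametinib, where they were high, and a gene that enters in this way has to differ in detection, so these 4 calls are not independent of the limit. By edgeR's quasi-likelihood test, with a block for each run of each screen and p-values adjusted after Benjamini and Hochberg (threshold 0.05), the calls made up 0.357% of the genes tested. An unadjusted p under 0.05 was reached by 111 genes (7.93%), 35 higher and 76 lower with imatinib. The median difference over all 1400 genes was -0.09 on the log2 scale. Runs were numbered 1 to 3 in each screen, and leaving out 1 run number, which removes that run from both screens, left 0 or 1 call. Adding up counts per ordered condition or per run, which leaves fewer samples and tests more genes, gave 0 calls. Per ordered condition, the edgeR adjusted p of the 5 genes ran from 0.391 for EEF2 to 0.748 for RAB1B. The fit over single libraries has no term for the ordered condition.

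**Figure D2:**
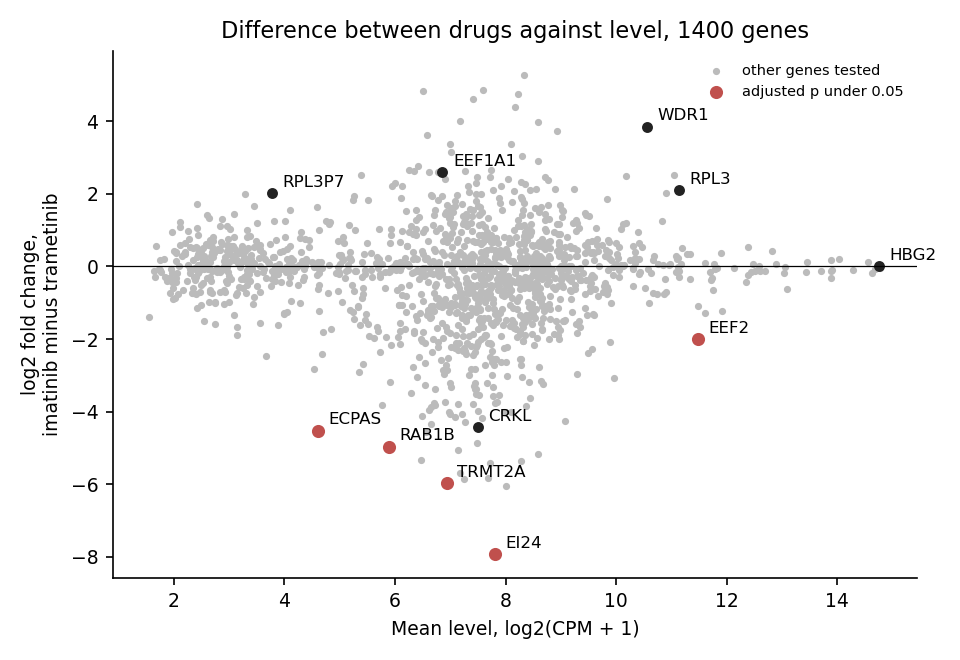
The log2 fold change (imatinib minus trametinib, y axis) against the mean level over both drugs (x axis, log2 of CPM plus 1) for the 1400 genes tested. Red points are the 5 genes with an adjusted p under 0.05, all below 0, from EI24 at -7.92 to EEF2 at -2.01, and black points are other genes named in the text.

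EEF2 (chr19:3976056-3985469 on GRCh38) had 434 to 1794 CPM (median 1130.1) in the 9 dT imatinib libraries and 1708 to 7092 CPM (median 3749) in the 9 dT trametinib libraries. In the Bio screen it had 46 to 3203 CPM (median 2298) in 6 imatinib and 302 to 10006 CPM (median 4763) in 8 trametinib libraries. In dT the groups met only at their edges, where the highest imatinib library passed the lowest trametinib library, while in Bio 5 of 8 trametinib libraries lay above every imatinib library and the other 3 lay within the imatinib range. The log2 fold change was -2.01 ± 0.44 (SE; edgeR quasi-likelihood test, adjusted p = 0.0351), and the mean was lower with imatinib in all 6 runs. Fitted within one screen it was -2.07 ± 0.36 in dT (adjusted p = 0.0235, the single call among 2182 genes there, or 0.0458%) and -1.97 ± 0.94 in Bio (adjusted p = 0.781, where 0 of 862 genes, or 0%, were called). The 6 DMSO_DMSO libraries of the same runs had 171 to 3419 CPM (median 913), a level nearer to that with imatinib, given as a description without a test. With log2 total counts as a term the adjusted p was 0.083, and without run 1, 2 or 3 it was 0.3, 0.535 and 0.0501.

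ECPAS (chr9:111360692-111484745), which encodes an adaptor and scaffold protein of the proteasome, had the smallest p. It had a count in 2 of 15 imatinib libraries and 15 of 17 trametinib libraries. With imatinib the 9 dT libraries held 0 to 19.7 CPM (median 0), and the 6 Bio libraries had no count at all. With trametinib the dT libraries held 3.01 to 155 CPM (median 60.4) and the Bio libraries 0 to 46.6 CPM (median 23.7). Summed over libraries this was 11 counts of 3809002 with imatinib and 245 of 4897916 with trametinib, or 2.89 and 50.02 CPM. All 6 DMSO_DMSO libraries had a count, with 15.1 to 1066 CPM (median 32.3). The log2 fold change was -4.53 ± 0.74 (SE; edgeR, adjusted p = 0.00112), lower in 6 of 6 runs. A library with 0 counts allows up to 3, which is 7.39 to 34.5 CPM at the depths of the imatinib libraries, and the median trametinib level of 27.7 CPM lies inside that range. Among the 5 genes, ECPAS alone was called without run 1 (adjusted p = 0.0356) and without run 3 (0.0138), and without run 2 its adjusted p was 0.123.

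EI24 (chr11:125569216-125584687), a p53-inducible membrane protein of the endoplasmic reticulum with a role in autophagy, was counted in 3 of 15 imatinib and 13 of 17 trametinib libraries. The imatinib libraries held 1 to 3 counts where they held any, 5 counts in all, against 1739 in the trametinib libraries. In dT the levels were 0 to 7.87 CPM (median 0) with imatinib, 0 to 685 CPM (median 102) with trametinib and 151 to 521 CPM (median 252) with DMSO. In Bio the DMSO_DMSO libraries had 0 to 12.2 CPM (median 0), about as low as with imatinib (0 to 18.3 CPM (median 0)), unlike in dT. Bio trametinib ranged from 0 to 2667 CPM (median 4.43), where 3 libraries held 221 to 256 counts each and the other 5 held at most 1. The log2 fold change was -7.92 ± 1.48 (SE; edgeR, adjusted p = 0.00475), and its size depends on so few imatinib counts. It was lower in 6 of 6 runs. Without run 2 the adjusted p was 0.123, and without run 1 or run 3 it was counted in too few libraries to be tested.

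TRMT2A (chr22:20111866-20117392), a tRNA uridine methyltransferase, and RAB1B (chr11:66268533-66277492), a small GTPase of transport from the endoplasmic reticulum to the Golgi, passed the threshold narrowly. TRMT2A was counted in 5 of 15 imatinib libraries at up to 40.6 CPM and in 12 of 17 trametinib libraries at up to 1189 CPM. Its log2 fold change was -5.98 ± 1.38 (SE; edgeR, adjusted p = 0.0481). RAB1B was counted in 5 of 9 dT imatinib libraries with 0 to 31.5 CPM (median 4.52), and 8 of 9 dT trametinib libraries with 0 to 487 CPM (median 167). In Bio it had no count with imatinib and was counted in 3 of 8 trametinib libraries. Its log2 fold change was -4.97 ± 1.17 (SE; edgeR, adjusted p = 0.0481). Among the DMSO_DMSO libraries TRMT2A was counted in 4 of 6 at no more than 20.2 CPM and RAB1B in 1 of 6. The median of TRMT2A was 28.5 CPM with trametinib and 8.51 CPM with DMSO, and that of RAB1B 70 CPM and 0 CPM, with overlapping ranges. RAB1B has a close paralogue, RAB1A, and how reads that the genes share were counted was not checked.

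Detection over all genes is given beside these 4 sparse genes, without a test. Over the 1400 genes, a gene had a count in 69.7% of imatinib and 73.2% of trametinib libraries on average, and 751 genes had the higher share with trametinib against 534 with imatinib. With log2 total counts as a term in the fit, ECPAS (adjusted p = 0.00142) and EI24 (0.00474) were called and TRMT2A (0.193) and RAB1B (0.139) were not. That fit adjusts for total counts and not for detected genes, so the part of detection in these differences was not tested.

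**Figure D3:**
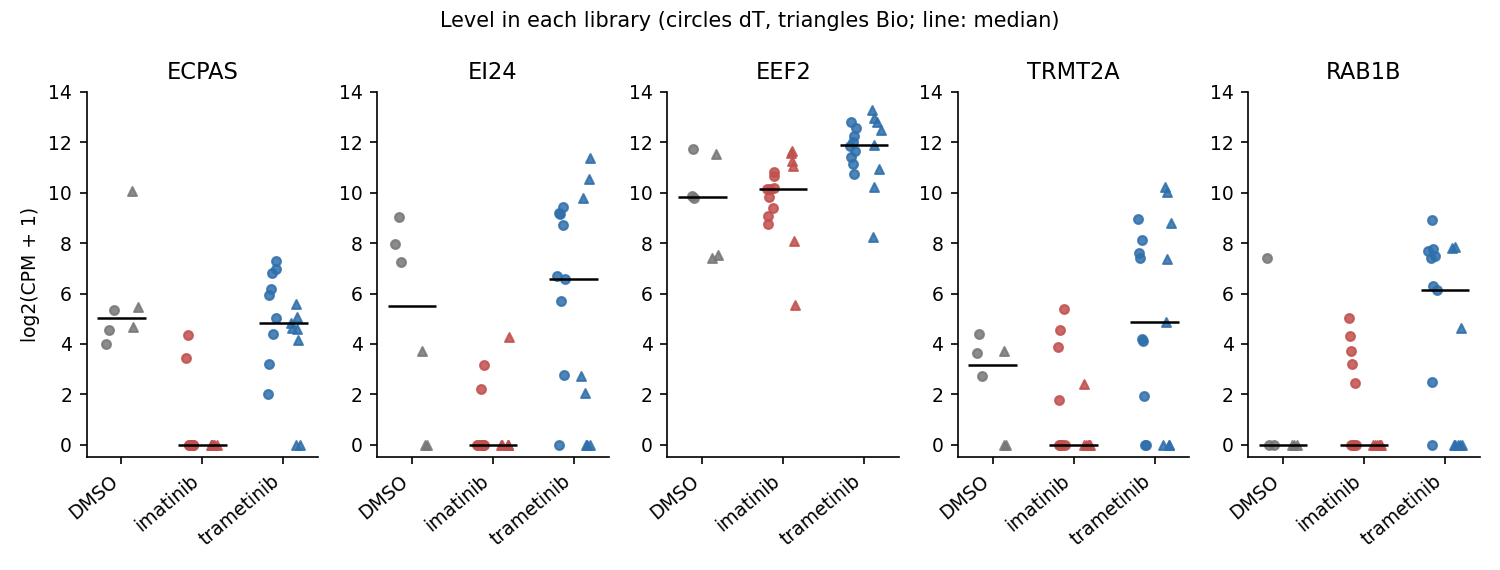
Levels of the 5 called genes in each library, as log2 of CPM plus 1 (y axis), for DMSO_DMSO, imatinib and trametinib (x axis). Circles are dT and triangles Bio libraries, and lines are medians over both screens. With imatinib the medians of ECPAS, EI24, TRMT2A and RAB1B lie at 0, while EEF2 is above 0 in every library.

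The next genes in the lower direction missed the threshold. HSF1, the heat shock transcription factor, was counted in 9 of 15 imatinib and 15 of 17 trametinib libraries, with medians of 3.15 and 105 CPM and 382 CPM with DMSO (-5.18 ± 1.30 log2, adjusted p = 0.071 by edgeR). ATP6AP1, an accessory subunit of the proton pump of lysosomes, had medians of 3.29 and 181 CPM (-6.04 ± 1.51, adjusted p = 0.071 by edgeR). SF1, which binds the intron branch point in splicing, SLC25A1, the mitochondrial citrate carrier, and MT-TC, the mitochondrial tRNA for cysteine, followed at log2 values of -5.34, -5.41 and -2.82, with edgeR adjusted p of 0.0722, 0.094 and 0.145. In all 5 of these the mean was lower with imatinib in 6 of 6 runs, which follows in part from their choice on these runs. The ranges of the drugs overlapped. DESeq2 on the same genes called 52 lower and 20 higher, 72 against 5, and HSF1 (adjusted p = 2.58e-05) was among its calls.

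In the other direction, 0 genes passed by edgeR, with 35 at an unadjusted p under 0.05 and 20 called by DESeq2. With other sets of genes or libraries edgeR called 9 higher with its own filter and 9 without a gene filter, 1 with the drug listed first and 1 with all in-screen libraries in the fit. The 10 with the smallest p were RPL3P7, RPL12P33, WDR1, ZNF385A, RACK1P1, RPL3, RPL12P8, EEF1A1, H2BC15 and RPL3P2. RPL3, a protein of the large ribosomal subunit, had 1006 to 4857 CPM (median 3106) with imatinib and 187 to 2551 CPM (median 1219.7) with trametinib in dT, and 777 to 12514 CPM (median 3334) and 0 to 1532 CPM (median 198) in Bio. Its difference was 2.10 ± 0.67 log2 (SE; unadjusted p = 0.0038, adjusted p = 0.187, edgeR), higher in 6 of 6 runs, with overlapping ranges in both screens. The DMSO_DMSO libraries had 306 to 2783 CPM (median 1832), between the medians of the drugs. RPL3P7 and RPL3P2 are processed pseudogenes of RPL3 with log2 values of 2.02 and 2.00 and medians of 16.3 and 6.31 CPM with imatinib. The third RPL3 pseudogene tested lay the other way, with an unadjusted p under 0.05. Reads of a gene and its processed copies are nearly identical, so these are not independent of RPL3 and their assignment is uncertain.

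The same holds for RPL12P33, RPL12P8 and RACK1P1, copies of genes for RPL12 and for RACK1, a ribosome-bound scaffold protein. RACK1P1 was at 1.67 ± 0.52 log2 (adjusted p = 0.184 by edgeR), while its parent RACK1 was at 0.17 ± 0.14, with 6047 to 24548 CPM (median 17549) with imatinib and 9259 to 20158 CPM (median 12159) with trametinib. RPL12P33 and RPL12P8 were at 1.72 and 1.45 log2 (adjusted p = 0.167 and 0.222 by edgeR). All 7 RPL12 pseudogenes tested had values above 0, from 0.07 to 1.72, a group picked after its values had been seen. Over all 168 ribosomal protein pseudogenes tested the median was 0.02, with 87 above and 81 below 0, beside -0.09 over all genes.

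WDR1, a partner of cofilin in taking actin filaments apart, had 0 to 3175 CPM (median 1023) with imatinib and 0 to 814 CPM (median 77.6) with trametinib in dT, and 0 to 20641 CPM (median 2531) and 0 to 795 CPM (median 29) in Bio. Its difference was 3.85 ± 1.18 log2 (adjusted p = 0.167 by edgeR) and its mean was higher with imatinib in 6 of 6 runs, with overlapping ranges. WDR1 passed without a gene filter (adjusted p = 0.00212), with all in-screen libraries (0.0431) and with DESeq2 (0.00421), and its adjusted p reached 0.764 among the other alternatives. EEF1A1, which brings aminoacyl-tRNA to the ribosome, had 6.11 to 702 CPM (median 114) with imatinib and 0 to 95.7 CPM (median 23.6) with trametinib (2.60 ± 0.92, adjusted p = 0.269 by edgeR). EEF1A1 also has many processed copies, and its value is uncertain for that reason. ZNF385A, a zinc finger protein, and H2BC15, a histone H2B gene, were at 4.83 and 4.62 log2 (adjusted p = 0.167 and 0.307 by edgeR), and neither had a count in any of the 8 Bio trametinib libraries.

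**Figure D4:**
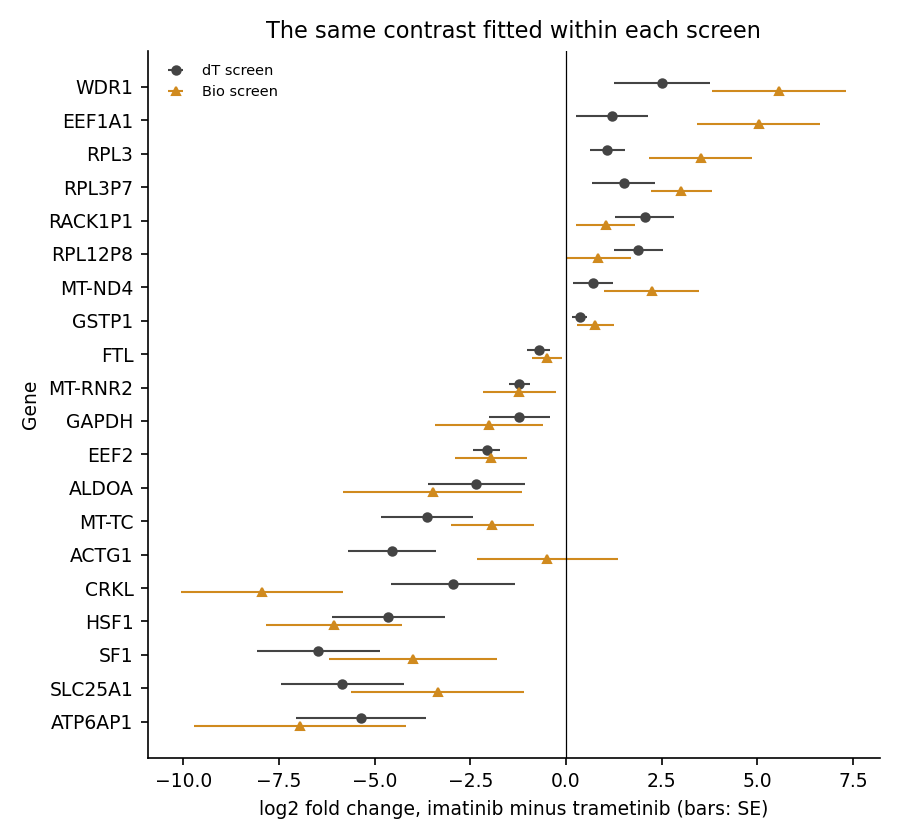
The log2 fold change (imatinib minus trametinib, x axis) fitted in the dT screen (circles) and in the Bio screen (triangles), with SE as bars, for the 20 named genes with an unadjusted p under 0.05 that were tested in both screens. The sign is the same in both screens for 20 of 20, which follows in part from their choice on the fit over both screens. ACTG1 and CRKL lie furthest apart. CRKL had no count in any Bio imatinib library, so the size of its Bio value is uncertain.

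The signalling chain that both drugs act on was thinly covered. Of its 20 genes 6 were tested, 0 passed in either direction, and their median log2 value was -0.58 beside -0.09 over all genes. CRKL, an adaptor that BCR-ABL phosphorylates directly, had the smallest p of these. It was counted in 5 of 15 imatinib libraries at up to 416 CPM and in 14 of 17 trametinib libraries at up to 1689 CPM, and in none of the 6 Bio imatinib libraries. Its log2 value was -4.43 ± 1.46 (SE; unadjusted p = 0.0048, adjusted p = 0.203 by edgeR). CRKL reached the limit on the share of libraries with a count through trametinib, where it was high. A gene that enters in this way has to differ in detection, so the p of CRKL is not independent of that limit. MAP2K2, which encodes MEK2, a direct target of trametinib, had 0 to 1702 CPM (median 551) with imatinib, 0 to 1444 CPM (median 319.7) with trametinib and 212 to 2677 CPM (median 1350.3) with DMSO. Its difference was 0.35 ± 1.08 log2 (adjusted p = 0.998 by edgeR), and the drugs overlapped over nearly the whole range. MAPK3, which encodes an ERK kinase, was at -1.33 ± 1.81 log2, HRAS at -1.47 ± 1.12 and ARAF, a RAF kinase, at 0.41 ± 1.96. SEs of 1 to 2 log2 units leave differences of severalfold in either direction undetected for these genes. BCR was counted in 6 of 15 imatinib and 9 of 17 trametinib libraries and ABL1 in 6 and 7, too few for the test.

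The transcripts that report ERK activity could not be compared at this depth. Of 20 ERK target genes 19 were among the genes analysed, 14 had a count in some library and 0 reached 50% of the libraries. EGR1, an early growth response factor, was counted in 1 of 15 imatinib and 7 of 17 trametinib libraries. IER2, an immediate early gene, was also counted in 1 and 7, and DUSP1, a phosphatase of MAP kinases, in 0 and 4. JUN was counted in 7 and 8, ETV5 in 4 and 6 and SPRED2 in 3 and 4. DUSP5 lay the other way, with 3 and 1. The rest were counted in at most 1 library of each drug. Of the 6 DMSO_DMSO libraries, EGR1 was counted in 0, IER2 in 1 and DUSP1 in 1. Over all genes tested, detection was also lower with imatinib, at 69.7% against 73.2% of libraries on average. The SPRY1 and SPRY2 genes and DUSP4 had no count in any of the 32 libraries. Of 11 STAT5 target genes only PIM1, a survival kinase, was tested. It was counted in 8 of 15 imatinib and 12 of 17 trametinib libraries, with medians of 2.46 and 74.4 CPM, at -2.21 ± 1.56 log2 (adjusted p = 0.856 by edgeR). MYC, a growth regulator downstream of both branches, was counted in 10 of 15 and 9 of 17 libraries and was at -1.10 ± 1.61 (adjusted p = 0.998 by edgeR).

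Among the globins of the K562 programme, HBG2 was measured closely, while the SEs of the other four were 0.69 to 1.45 log2 units. HBG2 had 9083 to 56289 CPM (median 28779) with imatinib, 12518 to 44677 CPM (median 23592) with trametinib and 14397 to 37743 CPM (median 25906) with DMSO. Its difference was 0.01 ± 0.14 log2 (SE; adjusted p = 0.998 by edgeR), with 3 runs higher and 3 lower. HBG1, the other gamma globin gene, was counted in 2 of 15 imatinib and 2 of 17 trametinib libraries. How reads shared by HBG1 and HBG2 were counted was not checked, so the HBG2 value may not be that of HBG2 alone. HBZ, the embryonic zeta globin, had medians of 703 and 796 CPM and a difference of -0.54 ± 0.69. HBE1, HBD and HBQ1 were at -0.62 ± 1.03, 1.35 ± 1.45 and 1.14 ± 1.23 log2, and 0 of the 5 globins tested passed (smallest adjusted p 0.987, edgeR). HBD was counted in 8 of 15 imatinib and 9 of 17 trametinib libraries and in 0 of 6 DMSO_DMSO libraries, which allows up to 3 counts in each, or 15.1 to 36.7 CPM.

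FTL, the light chain of the iron store ferritin, had 2356 to 12275 CPM (median 7332) with imatinib and 3711 to 19467 CPM (median 10087) with trametinib, and was lower with imatinib by mean in 6 of 6 runs (-0.61 ± 0.23 log2, adjusted p = 0.374 by edgeR, not past the threshold). FTH1, the heavy chain, was at 0.04 ± 0.42, with medians of 891 and 1001 CPM. Whether the chains differ from each other was not tested. Of the 18 genes of heme synthesis and iron, 5 were tested and 0 passed.

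Ribosomal proteins, which are abundant here, gave 36 tested genes of 46 in the large and 27 of 32 in the small subunit list, and 0 of either passed. Their median log2 values were -0.07 and -0.11, beside -0.09 over all genes. RPL3 was the 1 gene among the 63 with an unadjusted p under 0.05, which 7.93% of all genes tested reached. Among 24 translation factors 13 were tested, EEF2 was called lower and 0 higher, beside 0.357% of all genes tested, and the median was -0.64 beside -0.09 over all genes. Of the elongation factors tested, EEF2 lay below 0 and EEF1A1 and EEF1B2 (0.26 ± 1.09 log2) above it, and EEF2 alone passed. EEF1D was counted in too few libraries to be tested.

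In energy metabolism, GAPDH and ALDOA, enzymes of glycolysis, had unadjusted p under 0.05 and missed the adjusted threshold. GAPDH had 60.3 to 1204 CPM (median 296) with imatinib and 5.44 to 1894 CPM (median 844) with trametinib (-1.51 ± 0.68 log2, adjusted p = 0.524 by edgeR). ALDOA was counted in 10 of 15 imatinib libraries, in 17 of 17 trametinib and in 6 of 6 DMSO_DMSO libraries, with medians of 12.4, 368 and 1007 CPM (-2.71 ± 1.14 log2, adjusted p = 0.478 by edgeR). Of 9 glycolysis genes tested, 6 were below and 3 above 0, with a median of -0.65.

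Mitochondrial transcripts did not lie on one side. MT-RNR2, the large mitochondrial ribosomal RNA, had 836 to 6132 CPM (median 2769) with imatinib and 3711 to 8683 CPM (median 6048) with trametinib in dT, and was at -1.22 ± 0.41 log2 over both screens (adjusted p = 0.208 by edgeR). MT-RNR1, the small one, was at -2.39 ± 1.32. MT-ND4, a subunit of complex I, was at 1.24 ± 0.57 (adjusted p = 0.552 by edgeR), with medians of 1999 and 1153 CPM. Of 10 mitochondrially encoded protein genes tested, 5 were above and 5 below 0, and 0 passed. The mitochondrial share of all counts differed between the drugs in dT, as given above, and its part in these values was not tested.

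Of the remaining groups, 0 genes passed. ACTG1, the gamma actin, was at -3.09 ± 1.23 log2 (adjusted p = 0.414 by edgeR), with -4.54 ± 1.15 in dT and -0.49 ± 1.84 in Bio. GSTP1, a glutathione transferase, was counted in every library, with 2602 to 12584 CPM (median 6277) with imatinib and 772 to 8062 CPM (median 4372) with trametinib (0.54 ± 0.23, adjusted p = 0.467 by edgeR). HMGA1, an architectural chromatin protein, and MT1X, a metallothionein, were measured closely and were at 0.07 ± 0.16 and -0.02 ± 0.17 log2. HMGA1 medians were 8101 CPM with imatinib, 7379 CPM with trametinib and 14040.5 CPM with DMSO, so both drugs lay on the same side of the solvent, without a test of it. PYCR1, an enzyme of proline synthesis, was counted in too few libraries to be tested, 3 of 15 with imatinib and 9 of 17 with trametinib. All 6 DMSO_DMSO libraries had it at 1319 to 6098 CPM, and the highest library was at 748 CPM with imatinib and 4694 CPM with trametinib. Its difference by edgeR was -8.32 ± 1.497 log2 (SE; adjusted p = 0.000369) with no filter on genes and -8.36 ± 1.96 (adjusted p = 0.0322) with edgeR's own filter. With counts added up per ordered condition it was -5.16 ± 3.00 (adjusted p = 0.905) and per run -8.26 ± 2.43 (adjusted p = 0.568), neither past the threshold.

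To limit the comparison to genes measured everywhere, the 115 genes with a count in each of the 32 libraries were fitted on their own. EEF2 (-1.90 ± 0.42 log2, adjusted p = 0.0104, edgeR) and ENSG00000239776 (-1.19 ± 0.30, adjusted p = 0.0243, edgeR), a gene without a symbol in the tables used, were called, 1.74% of the genes. ENSG00000239776 had 3.22 to 37 CPM (median 13.6) with imatinib and 9.3 to 62.7 CPM (median 29.1) with trametinib, with overlapping ranges.

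The difference between the drugs was also compared between the screens and between the places in the pair. The term for an unequal difference between the drugs in dT and Bio was past the threshold for 0 of 1400 genes (0%, 158 at an unadjusted p under 0.05, edgeR). Among the libraries with DMSO as the partner, the term for an unequal difference when the drug was listed first or second was past it for 1 of 1400 genes (0.0714%, 113 at an unadjusted p under 0.05, edgeR). That gene was NDUFS8, a core subunit of complex I of the respiratory chain, with a term of -10.51 ± 1.94 log2 (SE, second minus first of imatinib minus trametinib, adjusted p = 0.0256, edgeR). NDUFS8 had 8613 to 11406 CPM in the 3 dT Imatinib_DMSO libraries and 0 to 3.69 CPM in the 3 dT DMSO_Imatinib libraries. In Bio the same conditions had 3567 to 7920 CPM and 10.1 to 21.4 CPM. The Trametinib_DMSO libraries had 287 to 1638 CPM in dT and 13.5 to 743 CPM in Bio, and the DMSO_Trametinib libraries 620 to 2236 CPM in dT and 0 to 2087 CPM in the 2 Bio libraries kept. With imatinib in both places the 3 dT libraries lay between at 1520 to 2736 CPM. The 3 Bio libraries, left out for too few genes, had 0 CPM. Those 3 held only 17882 to 30359 total counts, so 0 counts there allow a higher level than in the libraries kept. Over both positions NDUFS8 was at 2.52 ± 1.07 log2 (adjusted p = 0.486 by edgeR). With DMSO as the partner, the order in the label thus went with this gene's level under imatinib in both screens, so its value over both positions describes neither. With YM115 as the partner the ranges of the orders overlapped, at 1368 to 4632 CPM (imatinib first) and 720 to 1961 CPM (second) in dT and at 33.7 to 2290.1 CPM and 8.34 to 2596 CPM in Bio.

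**Figure D5:**
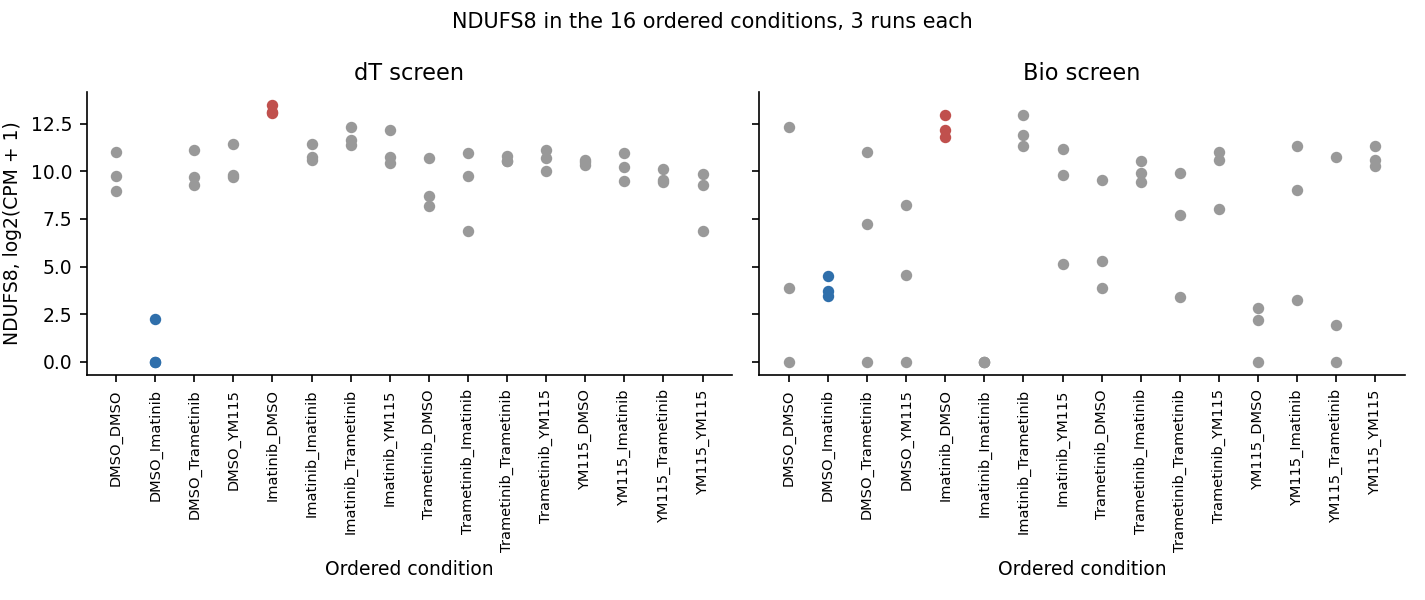
NDUFS8 as log2 of CPM plus 1 (y axis) in each ordered condition (x axis) of the dT screen (left) and the Bio screen (right), 1 point per run, with the 4 libraries under 1000 genes included. Imatinib_DMSO (red) is the condition with the highest dT level, 8613 to 11406 CPM, and DMSO_Imatinib (blue) lies at 0 to 3.69 CPM there.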

How the data were processed

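The values deposited by the authors are unnormalised counts of reads per gene, made per the labels with STAR 2.4.2a on GRCh38. Annotation, strand setting and removal of duplicate reads are not given in the sources used here. The floors given for libraries with 0 counts cover counting error only, while the SEs and SDs include the spread between libraries. Symbols matched 24539 of 24965 gene IDs and GENCODE release 29 coordinates 24646. The table held 0 columns of other samples.

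Counts were tested with edgeR 4.0.16 (TMM, glmQLFit, glmQLFTest) in R 4.3.3, with 6 block levels for run and screen. Libraries needed 1000 detected genes and genes a count in at least 50% of the 32 libraries. Levels are counts scaled to a common library total (CPM). The SE of an edgeR value is its absolute log2 value divided by the square root of the quasi-likelihood F. It is approximate for genes with few counts. Alternatives used DESeq2 1.42.0 and limma 3.58.1. The scripts were tested on simulated data. Permutation tests used 100000 resamples within blocks.

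The process was run 3 times per screen, but libraries of 1 run were made together, so p-values measure the spread between libraries. The runs of 1 ordered condition entered as separate libraries, with no term for the condition. Levels that go with an ordered condition, as seen for NDUFS8, are not allowed for in these p-values. Same-numbered libraries come from the same run by the study's design. Their deviations from the mean of their ordered condition correlated at a mean r of 0.0085 over 71 pairs. Over 173 pairs from different runs of 1 screen it was -0.096. Taking out the mean of a condition pushes pairs of that condition below 0, and all such pairs are among the 173. The values therefore cannot show whether libraries of the same run resemble each other. Of the 31 pairs of libraries of the same condition, 0 were identical and all differed beyond sampling noise (lowest chi-square per degree of freedom 57.6).

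Members, lists and tests were chosen with earlier results of these data known. Named were all genes past an adjusted p of 0.05, or the 10 with the smallest p in a direction where fewer passed, tested genes of the signalling, ERK, STAT5 and globin lists, 7 genes fixed singly, and up to 3 per other list. NDUFS8, ENSG00000239776 and the pseudogene groups were added after their values were seen. For genes picked by p, a sign shared by all runs follows in part from that choice. Some members of these lists stay in the counts and medians but are not reported here singly.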

Additional observations from a re-analysis of the deposited data

Results flagged for a closer look

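NDUFS8 differed between listing positions. The difference between the drugs was unequal when the drug was listed first and when it was listed second, with a term of -10.51 ± 1.94 log2 (SE, second minus first of imatinib minus trametinib, edgeR adjusted p = 0.0256). The term was -10.47 without the replicate block (adjusted p = 0.00473), -10.03 without run 1 of both screens (0.425), -11.51 without run 2 (0.0097) and -9.73 without run 3 (0.688), so its size held while its call did not. All 6 Imatinib_DMSO libraries lay at or above 3567 CPM and all 6 DMSO_Imatinib libraries at or below 21.4 CPM. Among the other conditions with imatinib listed second, Trametinib_Imatinib had 117 to 1996 CPM in dT and 686 to 1457 CPM in Bio. With imatinib listed first, Imatinib_Trametinib had 2649 to 5103 CPM in dT and 2568 to 7993 CPM in Bio. With YM115 as the partner the orders overlapped, at 1368 to 4632 CPM (imatinib first) and 720 to 1961 CPM (second) in dT and at 33.7 to 2290.1 CPM and 8.34 to 2596 CPM in Bio. The 3 Bio Imatinib_Imatinib libraries had 0 CPM, at only 17882 to 30359 total counts, so 0 counts there allow a higher level than in deeper libraries. DMSO_DMSO had 489 to 2019 CPM in dT and 0 to 5106 CPM in Bio.

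A single library stood apart for a called gene in 2 of 32 groups of libraries tested (1 drug in 1 screen). In both groups the other 5 libraries held 0 counts, so a library with any count would stand apart. The rate of about 1 in 20 that chance gives for such a flag does not apply there. For EI24, run 3 of Bio Imatinib_DMSO was at 4.27 on the log2(CPM + 1) scale, from 3 counts. The other 5 Bio imatinib libraries were at 0. For TRMT2A, run 1 of Bio DMSO_Imatinib was at 2.403 on that scale, from 1 count, with the other 5 at 0.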

How the results depend on the processing

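The count of genes past the threshold, 5 with the fit described above, was 4 with DESeq2 size factors, 4 with all 36 libraries and 5 with the mitochondrial limit of 15%, which removed 0 libraries. It was 3 with library totals alone, 72 with DESeq2, 1 with limma-trend, 61 with filterByExpr, 27 without a gene filter and 2 among genes counted in every library. It was 1 in dT, 0 in Bio, 1 without the libraries that hold the drug in both places, 2 with the drug listed first and 0 with it listed second. It was 2 with listed position and 2 with log2 total counts as a term, 0 with counts added up per ordered condition or per run and 10 with all in-screen libraries in the fit. Without the replicate block it was 3. Leaving out 1 run number, in both screens at once, gave 0 to 1. All 5 genes stayed below 0 wherever they were tested. Fewer samples or other sets of genes tested enter many of these fits, and the cause of the changes was not tested. The median over all genes tested moved to -0.41 with filterByExpr and -0.47 with counts added up per run.

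The count for drug by screen was 0 in every fit run, and that for drug by listed position 1, also without the replicate block, and 0 to 1 when 1 run number was left out. The difference in detected genes passed the threshold with all 36 libraries (-622, permutation p = 0.014). The mitochondrial share passed with all 36 libraries (-0.651 percentage points, permutation p = 0.0449), in dT (-0.912) and without run 2 (leaving out a run number gave -0.879 to -0.185), and turned in Bio (0.0953). The difference in log2 total counts kept its sign and did not pass in any of its alternatives.

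Of 935 values of 45 named genes under the alternatives, 796 kept sign and side of the threshold, 53 lost a call, 32 gained one and 54 turned sign, none of the latter past the threshold in the fit described above. The cause was not tested. With the drug listed second the sign turned for MT-TC (2.14), PIM1 (2.42), HBE1 (0.034), HBG2 (-0.30), HMGA1 (-0.18), GAPDH (1.94), MT1X (0.34). With counts added up per ordered condition the sign turned for MAPK3 (0.52), HBQ1 (-0.35), MT1X (0.098). With all in-screen libraries in the fit the sign turned for MAPK3 (1.31). Without the replicate block the sign turned for MAPK3 (0.59), HBQ1 (-0.29). With limma-trend the sign turned for MAP2K2 (-0.16), HBQ1 (-0.27), HBG2 (-0.047), FTH1 (-0.082). In the dT screen alone the sign turned for MAP2K2 (-0.018), ARAF (-1.13), HBZ (0.25), MT1X (0.0097). Without the libraries that hold the drug in both places the sign turned for HBE1 (0.22), HBG2 (-0.15), FTH1 (-0.15). With the drug listed first the sign turned for HBE1 (0.27), FTH1 (-1.43), MYC (1.69). With all 36 libraries the sign turned for HBG2 (-0.30), RACK1 (-0.13), HMGA1 (-0.094). In the Bio screen alone the sign turned for HBG2 (-0.15), FTH1 (-0.32), RACK1 (-0.0299). With listed position as a term the sign turned for FTH1 (-0.057), MT1X (0.021). With log2 total counts as a term the sign turned for FTH1 (-0.0081), MT1X (0.013). With counts added up per run the sign turned for FTH1 (-0.099), HMGA1 (-0.011). With DESeq2 size factors the sign turned for MT1X (0.094). With library totals alone the sign turned for MT1X (0.018). With DESeq2 the sign turned for MT1X (0.093). With filterByExpr the sign turned for MT1X (0.029). Among genes counted in every library the sign turned for MT1X (0.12). Leaving out 1 run number gave MAPK3 from -1.41 to 0.51, MAP2K2 from -0.24 to 0.95, ARAF from -0.79 to 1.90, HBE1 from -2.38 to 0.57, HBG2 from -0.039 to 0.12, FTH1 from -0.24 to 0.33, MT1X from -0.17 to 0.14.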
